A study of Mus musculus with 8 samples.

Results

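Lipid uptake, storage and efflux genes were followed across leukocytes of the brain and its borders after experimental stroke. The genes were taken by name and comprised 10 of the 30406 genes that all libraries share. Lipoprotein lipase (Lpl), the scavenger receptor Cd36, the carriers Fabp5 and Fabp4, the lipid droplet coat protein Plin2, the cholesterol esterifying enzyme Soat1, the lysosomal acid lipase Lipa, the lysosomal and membrane glycoprotein Gpnmb, and the cholesterol exporters Abca1 and Abcg1 were all found in the deposited counts. In the cluster that the study named SAMC (stroke-associated myeloid cells), Plin2, Cd36 and Lipa each ranked first among clusters in 3 of 4 libraries. So did Gpnmb, but outside brain at 72 h its first places rested on a few cells. For Lipa, SAMC did not differ from the cluster CAM_2 beyond the spread between libraries. The levels in SAMC differed by time, with Lpl high in both brain libraries at 24 h and Fabp5 and Gpnmb high at 72 h. The 72 h values came from 1 library made with another kit version. None of the 10 genes was called in the main tests, which called 0.643% of all genes for pia against brain and 0% in every other comparison.

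All libraries came from male C57BL/6 mice, 10 to 16 weeks old, without a transgene. The stroke groups had a transient middle cerebral artery occlusion (MCAO), a filament model in which blood flow to part of one hemisphere is stopped for a time and then restored. Control animals had no stroke, and the study calls them naive in its methods and sham elsewhere. Leukocytes were sorted as CD45+ cells that a CD45 antibody given into the blood had not reached (CD45iv-), so that blood leukocytes were depleted. Brain at 24 h after stroke had 2 libraries (replicates 1 and 2). Every other group had 1, namely brain, pia and dura of control mice, brain at 72 h, and both pia and dura at 24 h after stroke. The study's reporting summary gives a pooled number of mice per compartment but not per library, and for the control pia library one label, its title, gives brain parenchyma while the remaining labels give pia mater.

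Each library was a droplet-based single-cell RNA library, in which every captured transcript carries a unique molecular identifier (UMI). The libraries held between 6591898 and 20754181 UMIs, and the study's annotation assigned 32457 of 36854 cell barcodes to 21 clusters. For each gene, UMIs were summed over the cells of a cluster in 1 library and expressed as CPM of the UMIs of those cells, for clusters with at least 30 cells. Intervals of single libraries are exact Poisson or binomial 95% intervals and cover counting error only. Clusters were formed from these same counts, and the study itself picked Lpl, Fabp5 and Gpnmb as genes of SAMC on these libraries. It also describes Perilipin-2 (Plin2) and CD36 (Cd36) as highly expressed in SAMC. Levels across clusters are therefore a description and were given no test.

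Libraries differed in ways that touch the comparisons. The 6 control, pia, dura and first brain 24 h libraries were counted against a list of 32285 genes, whereas brain 24 h replicate 2 and brain 72 h were counted against 31053 genes. The study's sample sheet gives kit version 3 for brain 72 h and dura 24 h and version 2 for the others. Dura at 24 h and control dura therefore differ in kit, and stroke and kit cannot be told apart between them. Below, the macrophage clusters are Macro_1, Macro_2, CAM_1 and CAM_2 taken as one, and the microglia clusters are stress_Micro with Micro_1, Micro_2 and Micro_3. In control brain the macrophage clusters held 2866 CPM of Tmem119 and 4830 CPM of P2ry12, which mark microglia, and 83.1 CPM of 4 border macrophage markers (Pf4, Lyve1, Mrc1 and Cd163). Tmem119 was at 1182, 138 and 134 CPM in brain 24 h replicates 1 and 2 and brain 72 h, and at 46.3 to 91.3 CPM in pia and dura, where the border macrophage markers reached 1985 to 2810 CPM. In control brain these clusters therefore carried microglial rather than border macrophage transcripts, against their names, and their part in the brain comparisons was not tested. Adipocyte markers, which matter because Lpl, Fabp4 and Cd36 are abundant in fat, summed to at most 1.38 CPM in the macrophage clusters.

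Cells take up fatty acids that lipoprotein lipase releases from lipoproteins, and oxidized lipoproteins and lipids through scavenger receptors such as CD36. Fatty acid binding proteins carry the lipids inside the cell, perilipin 2 coats the droplets in which they are stored, SOAT1 esterifies cholesterol for storage, and lysosomal acid lipase splits the esters of engulfed lipoproteins and membranes. Excess cholesterol leaves the cell through ABCA1 and ABCG1, and macrophages that digest myelin or dead cells are known to depend on these steps.

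For the 10 genes, RefSeq start-site windows on GRCm38.p6 were held for 6. Letters of the AP-1 motif TGACTCA and of the E-box CACGTG, which bHLH factors such as the TFE and MITF family bind, were looked for on both strands in 250 bases before and 50 bases after each start. TGACTCA was in 1 of the 6 windows (Gpnmb), against 5.20% of 32851 promoters, and CACGTG was in 2 (Plin2 and Abca1), against 7.15%. The 80-base stretches around these matches are shown because they are the members' windows that hold a motif, with the motif in capitals and each read on the strand of the gene. The Gpnmb stretch lies at chr6:49036458-49036537 on the plus strand with its motif at positions 9 to 15 after the start, the Plin2 stretch at chr4:86670040-86670119 on the minus strand with its motif across the start, and the Abca1 stretch at chr4:53160000-53160079 on the minus strand with its motif at -147 to -142. A match describes the letters and not a bound site.
Gpnmb: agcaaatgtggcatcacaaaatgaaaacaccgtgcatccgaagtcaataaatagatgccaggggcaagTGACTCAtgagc
Plin2: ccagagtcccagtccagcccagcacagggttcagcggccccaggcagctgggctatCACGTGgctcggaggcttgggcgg
Abca1: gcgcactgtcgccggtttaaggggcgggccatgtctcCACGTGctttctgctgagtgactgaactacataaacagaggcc

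SAMC reached 30 cells in 4 libraries, which were the 3 stroke brain libraries and the stroke pia library. Their own named markers (Spp1, Cd14 and Apoe) summed to 42743 to 127402 CPM there. Among the clusters of the same library, Plin2 ranked first in SAMC in the 3 brain libraries, Cd36 in 3 of the 4, Gpnmb in 3 and Lipa in 3. For Gpnmb the first places in replicate 2 and pia rested on 3 cells and 1 cell, as described below. For Lipa those in replicate 2 and pia rested on 39 and 13 UMIs, and SAMC and CAM_2 did not differ beyond the spread. In pia, Macro_1 held more Cd36 than SAMC (295 against 224 CPM), but with 28 cells it was not ranked. Lpl was first in both brain libraries at 24 h, second in pia and sixth of 19 clusters at 72 h. Soat1 was first or second in all 4, whereas Fabp5 was first at 72 h only and otherwise between 3 and 5. Abca1 and Abcg1 were never first.

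Means over libraries depend on which libraries a cluster was found in. SAMC had the highest mean of 6 genes (Lpl, Fabp5, Fabp4, Plin2, Soat1 and Gpnmb), but its mean covers stroke libraries only, whereas those of CAM_1, CAM_2 and Macro_2 include the controls. Its first place for Fabp4 (27.2 CPM, mDC2 at 23.9 CPM) rested on 14 UMIs of 1 cell, and passed to mDC2 with at least 10 cells and to Macro_1 with thinned cells. Cd36 had its highest mean in CAM_1. The highest means of Abca1 (stress_Micro, in brain 24 h replicate 2 and brain 72 h) and of Lipa and Abcg1 (Macro_1, in brain 72 h) came from clusters found in 1 or 2 libraries. In replicate 2 Abca1 was higher in CAM_1 (970 CPM) and SAMC (903 CPM) than in stress_Micro (500 CPM), and at 72 h Lipa was higher in SAMC (486 CPM) than in Macro_1 (228 CPM).

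**Figure D1:**
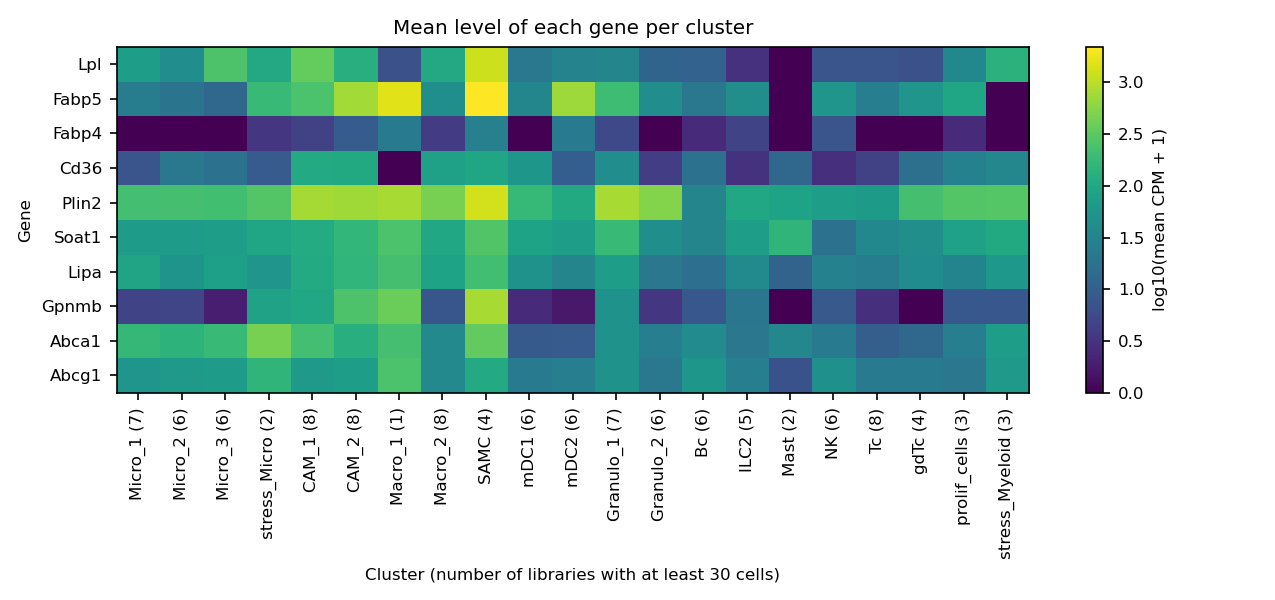
Mean level of the 10 genes (rows) in each cluster (columns), as log10 of the mean CPM plus 1 over libraries with at least 30 cells, whose number stands in brackets. SAMC, with stroke libraries only, had the highest mean of 6 genes, with 1234 CPM of Lpl and 2201 CPM of Fabp5, while Abca1 was also high in microglia clusters and Plin2 in granulocytes.

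Lpl (chr8:68880491-68907448, plus strand, GRCm38 as for all genes here) splits triglycerides of lipoproteins. In SAMC it was at 2110 CPM in brain 24 h replicate 1, 2619 CPM in replicate 2, 57.7 CPM in brain 72 h and 151 CPM in pia 24 h. Both brain libraries at 24 h stood above those of 72 h and of pia without overlap. Of all Lpl UMIs in brain 24 h replicate 1, 43.3% lay in SAMC, which were 6.57% of the cells, and in replicate 2 the shares were 33.8% and 3.46%.

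Lpl was not restricted to SAMC. CAM_1 held 41.9 CPM in control brain, 963 and 1639 CPM at 24 h and 91.9 CPM at 72 h, and Micro_3 held 17.4, 657, 541 and 148 CPM in the same order. Both clusters were low in the control, high in each 24 h library and lower at 72 h. SAMC have no control value, since control brain held 1 such cell, with 17 Lpl UMIs. Other microglia clusters had another course, with Lpl at 3.28, 23.9, 89.5 and 139 CPM in Micro_1, highest at 72 h, and at 7.77, 29.4, 122 and 73.2 CPM in Micro_2. Brain 24 h replicate 1 and control brain share gene list and kit. Between them Lpl in the macrophage clusters was 19.9-fold higher in replicate 1 (counting interval 13.6 to 30.3, 1768 and 27 UMIs). The macrophage clusters of control brain carried microglial transcripts, as described above. In the microglia clusters Lpl was 22.4-fold higher (16.4 to 31.3). At 72 h it was 45.4-fold lower in SAMC than in brain 24 h replicate 2 (37.6 to 55.1) and 21.5-fold lower in the macrophage clusters (17.8 to 26.0), libraries that share a gene list but not a kit. In the microglia clusters this ratio was only 0.505 (0.423 to 0.601). Lpl therefore differed less between the times in microglia clusters than in SAMC, although the difference between these ratios was not tested.

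At the borders Lpl was low. In the macrophage clusters it was at 8.45 CPM in control pia and 20.7 CPM in pia at 24 h, and at 40.4 CPM in control dura and 47.7 CPM in dura at 24 h. The dural ratio of 1.18 (0.895 to 1.57) was within counting error, and the pial ratio was 2.44 (1.63 to 3.74). In the microglia clusters of pia it was 18.6 CPM in the control and 123 CPM at 24 h, a ratio of 6.61 (3.39 to 14.4). These pial cells held 1203 and 1028 CPM of Tmem119 in control and at 24 h, and the microglia clusters of pia and dura also held 13224 to 40274 CPM of macrophage markers (Lyz2, Apoe and Cd14), against 1545 to 4818 CPM in brain. The part of these other transcripts in the Lpl values was not tested.

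Fabp5 (chr3:10012548-10016607, plus strand), a carrier of fatty acids in macrophages and epithelia, had another course. In SAMC it was at 17.3 CPM in brain 24 h replicate 1, 1096 CPM in replicate 2, 7654 CPM in brain 72 h and 36.5 CPM in pia 24 h. The 2 replicates at 24 h differed 63.3-fold (38.3 to 112), which is more than the 6.98-fold difference between replicate 2 and 72 h (6.19 to 7.91). At 72 h SAMC were 8.02% of the cells and held 50.7% of all Fabp5 UMIs. CAM_2 followed with 4708 CPM, CAM_1 with 1843 CPM and Macro_1 with 1573 CPM, whereas in control brain CAM_2 had no UMI and CAM_1 2.62 CPM.

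Gpnmb (chr6:49036546-49070929, plus strand), a glycoprotein of phagocytes that carry a heavy lysosomal load, ran with Fabp5. In SAMC it was at 10.8 CPM in brain 24 h replicate 1, 402 CPM in replicate 2, 2707 CPM in brain 72 h and 142 CPM in pia 24 h. CAM_2 held 81.1, 212 and 1741 CPM in the 3 stroke brain libraries and no UMI in control brain or in either pia library. CAM_1 held 771 CPM at 72 h and at most 4.16 CPM in each of the other 7 libraries. In the macrophage clusters as a whole Gpnmb was 22.2-fold higher at 72 h than in brain 24 h replicate 2 (16.2 to 31.2, 4766 and 39 UMIs). Of the 39 UMIs of replicate 2, 36 were in CAM_2, 32 of them in 3 of 89 cells.

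**Figure D2:**
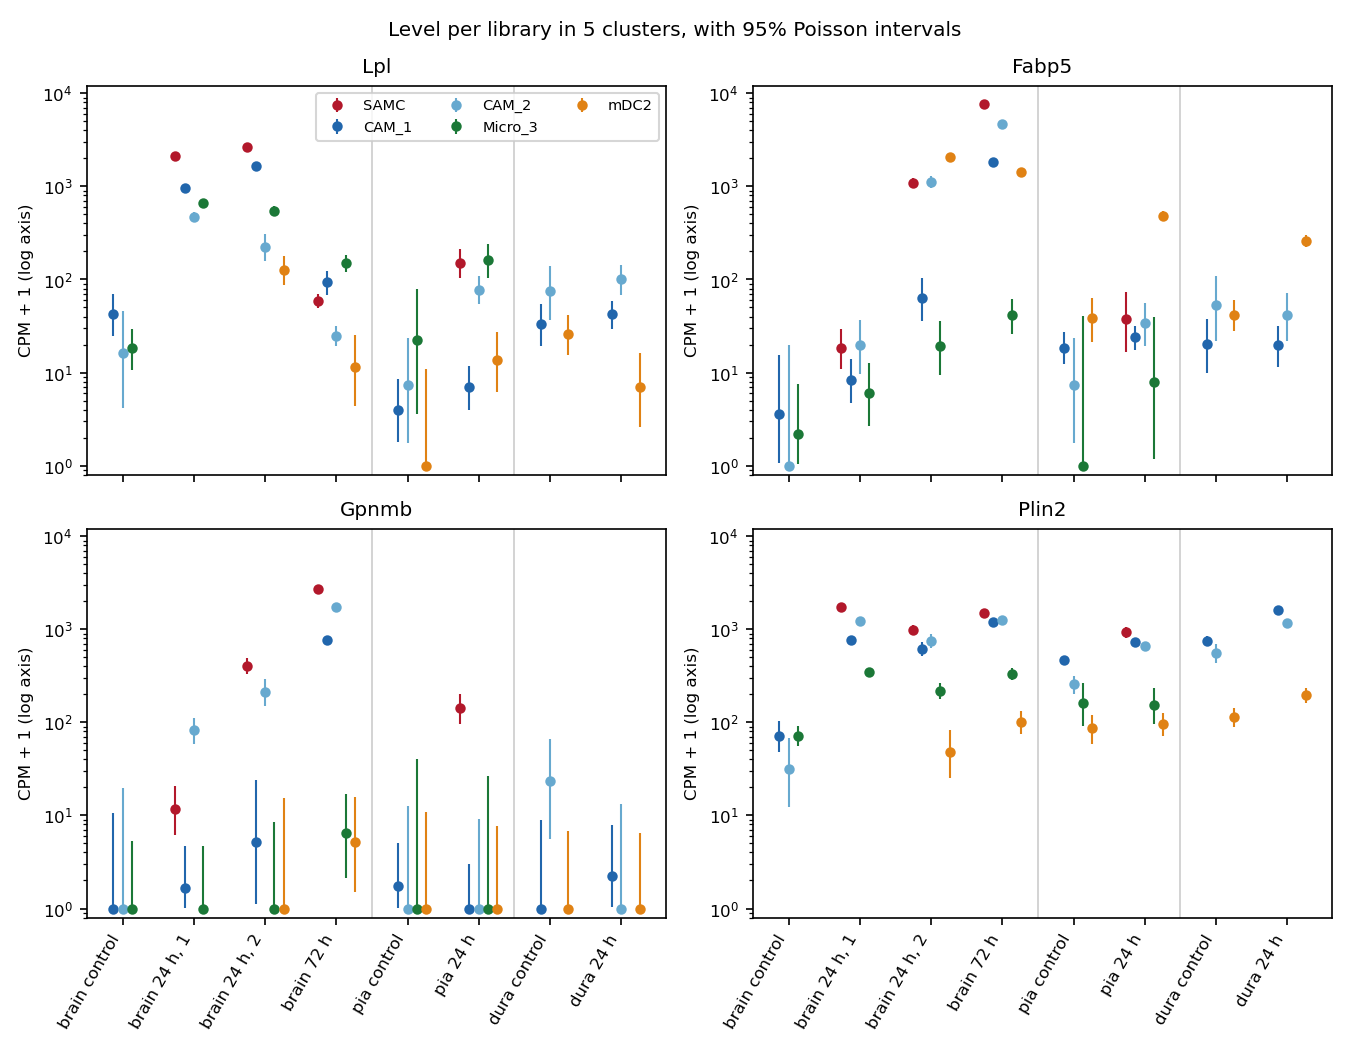
CPM plus 1 on a log axis of Lpl, Fabp5, Gpnmb and Plin2 in each library (horizontal axis) for SAMC, CAM_1, CAM_2, Micro_3 and mDC2, points with 95% Poisson intervals. Lpl peaks in the 2 brain libraries at 24 h (2110 and 2619 CPM in SAMC), Fabp5 and Gpnmb at 72 h (7654 and 2707 CPM), and Plin2 is high at both times.

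The sums of replicate 2 rested on a few cells. Of its 267 Fabp5 UMIs in SAMC, 244 (91.4%) lay in 3 of 120 cells, with 126, 88 and 30 UMIs. The same 3 cells held 28, 31 and 37 Gpnmb UMIs, 98.0% of the Gpnmb in SAMC of that library, and none of them had an Lpl UMI. Without them SAMC of replicate 2 had 105 CPM of Fabp5 and 9.10 CPM of Gpnmb, while Lpl was at 2904 CPM and Plin2 at 815 CPM. In replicate 1, from which no cell was removed, all 10 Gpnmb UMIs of SAMC also lay in 3 cells, so that the 2 values are not set against each other. The removal was chosen after the values were seen. At 72 h, in contrast, 427 of 485 SAMC had a Fabp5 UMI, with a median of 24 per cell, and the 3 highest cells held 3.83%. In pia at 24 h all 31 Gpnmb UMIs of SAMC came from 1 cell. In CAM_2 the 3 highest cells held 142 of 190 Fabp5 UMIs in replicate 2, and of the Gpnmb UMIs 37 of 39 in replicate 1 and 32 of 36 in replicate 2.

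Shares of cells were compared after each cell was thinned to 1000 UMIs. A UMI of Lpl was found in 65.6% of SAMC (59.8 to 71.1, n = 285 cells) in brain 24 h replicate 1, in 66.2% (54.3 to 76.8, n = 74) in replicate 2 and in 4.63% (2.93 to 6.93, n = 475) at 72 h. For Fabp5 the shares were 0.351%, 6.76% and 83.4%, and for Gpnmb 0.702%, 5.41% and 75.6%. Cells under this depth were left out, 16 and 46 SAMC in the replicates and 10 at 72 h. Before thinning, Lpl was found in 85.7%, 75.8% and 13.4% of SAMC and Fabp5 in 2.33%, 7.50% and 88.0%. Lymphocytes were set beside them as a rough gauge of free RNA. They had Lpl in at most 4.53%, Fabp5 in at most 6.38% and Gpnmb in at most 0.709% of thinned cells. Whether lymphocytes express Fabp5 themselves was not tested, so that for this gene their share is a comparison only. Of the same library at 72 h, 0.709% of lymphocytes had Lpl and 6.38% had Fabp5, both below SAMC, at median depths of 1180.5 UMIs per lymphocyte and 4606 UMIs per SAMC before thinning. The Fabp5 share of SAMC in brain 24 h replicate 1 (1 of 285 cells) had an interval that overlapped that of its lymphocytes (0 of 55 cells), and in replicate 2 its interval (2.23 to 15.1) overlapped that of the lymphocytes (1.33%, 0.434 to 3.08).

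**Figure D3:**
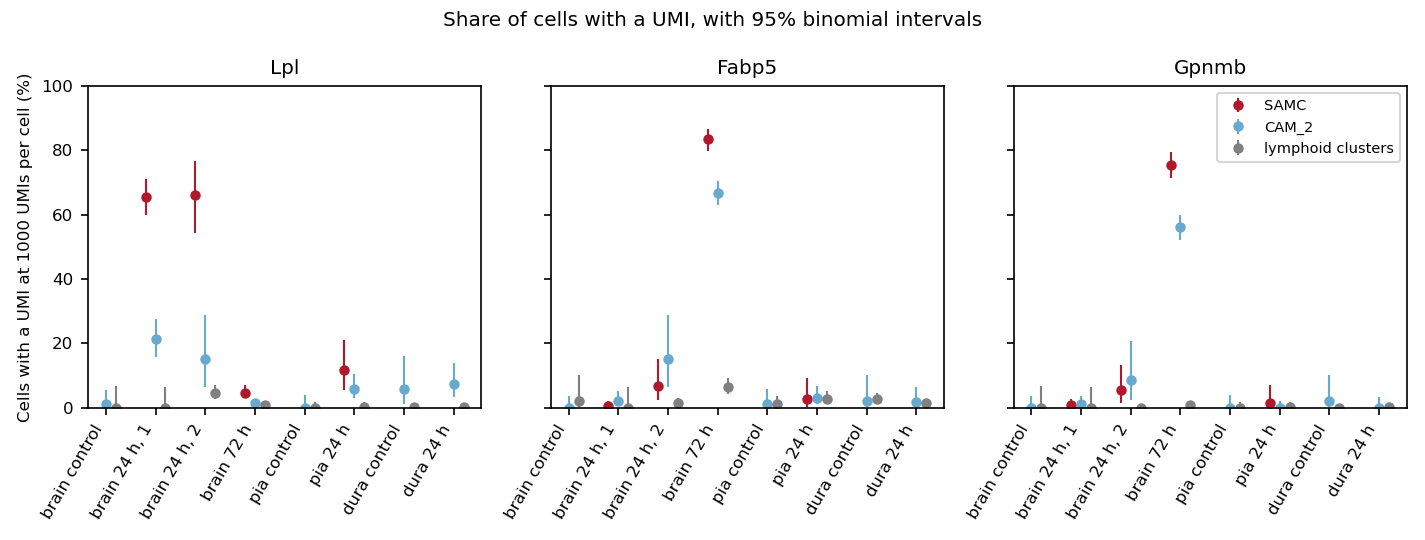
Percent of cells with a UMI of Lpl, Fabp5 or Gpnmb (vertical axis) in each library after thinning to 1000 UMIs per cell, for SAMC, CAM_2 and the lymphoid clusters, with exact binomial 95% intervals. In SAMC the Lpl share is 65.6% and 66.2% at 24 h and 4.63% at 72 h, whereas the Fabp5 share is 83.4% at 72 h.

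Within SAMC at 72 h, Fabp5 and Gpnmb lay in the same cells more often than apart. Of 396 thinned cells with Fabp5, 82.8% also had Gpnmb, against 39.2% of the cells without Fabp5. Of the 22 cells with Lpl at this time 12 had Fabp5, a share of 54.5% against 84.8% of the cells without Lpl. In SAMC of brain 24 h replicate 1, 63.6% of cells with Lpl and 64.3% of cells without it had Plin2. In CAM_1 of the same library the shares were 57.8% and 19.3%. Cells of a cluster share a library and differ in state, and these shares were given no test.

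Fabp5 was also found outside the macrophages. In mDC2, the type 2 dendritic cells, it was at 37.2 CPM in control pia and 479 CPM in pia at 24 h, 12.9-fold higher (7.53 to 23.9). In dura the values were 40.8 and 260 CPM, 6.38-fold (4.21 to 10.0), and in the brain mDC2 held 2055 CPM in replicate 2 and 1434 CPM at 72 h. In replicate 2, 293 of the 524 UMIs lay in 3 of 46 cells. The 3 highest cells held 17.9% in brain 72 h, 29.4% in pia at 24 h and 37.9% in dura at 24 h. After thinning, 15.6% of mDC2 in pia at 24 h had a Fabp5 UMI (10.7 to 21.6) against 4.35% in control pia, and 8.68% in dura at 24 h (5.30 to 13.2) against 4.41% in control dura. Lymphocytes of the same 4 libraries had shares of 2.70% (pia at 24 h), 1.01% (control pia), 1.52% (dura at 24 h) and 2.80% (control dura). The dural intervals of mDC2 overlapped, and only at 24 h did mDC2 exceed the lymphocytes of their library without overlap of the intervals.

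Fabp4 (chr3:10204088-10208576, minus strand), the carrier of adipocytes and macrophages, was scarce everywhere. SAMC held 2.16, 57.5, 49.0 and 0 CPM in brain 24 h replicates 1 and 2, brain 72 h and pia 24 h, and all 14 UMIs of replicate 2 lay in 1 cell. In mDC2 no UMI was found in either border control, and 38.4 CPM were found in pia at 24 h (21 UMIs in 9 cells), at least 4.81-fold higher with the control taken at 3 counts. In dura at 24 h there were 7 UMIs in 4 cells, or 10.5 CPM (4.21 to 21.6), whose interval reached below the limit that 3 counts set for its control. Fabp4 and Fabp5 had a Pearson r of 0.78 across 112 cluster sums of log-scaled CPM, the closest pair among the 10 genes. Such sums share libraries and depth, and r describes them without a test.

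Plin2 (chr4:86648386-86670060, minus strand) was the storage gene present in most clusters. In SAMC it was at 1752, 981 and 1483 CPM in the 3 stroke brain libraries and at 931 CPM in pia 24 h. SAMC exceeded CAM_2 in all 4 libraries, by 0.41 on the log2 scale (SD 0.13), and CAM_1 by 0.63 (SD 0.40). Granulo_1, at 526 to 1215 CPM in the 5 stroke libraries, was below SAMC in the 3 stroke brain libraries but above it in pia (1215 against 931 CPM). Over these 4 libraries the difference of 0.59 was less than its SD of 0.66.

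In each tissue Plin2 of the macrophage clusters was higher in the stroke library than in its control, with replicate 1 taken for the brain. The macrophage clusters held 78.6 CPM in control brain and 884 CPM in replicate 1, a ratio of 11.2 (8.54 to 15.1). In pia they held 313 and 585 CPM, 1.87-fold (1.74 to 2.00), and in dura 573 and 1144 CPM, 2.00-fold (1.87 to 2.14). Granulo_1 also held more at 24 h, with ratios of 2.96 in pia (2.13 to 4.24) and 1.90 in dura (1.51 to 2.41). The dural libraries also differ in kit, so that stroke and kit cannot be told apart in the dural ratios. The brain ratio compares clusters that carry microglial transcripts in the control, as described above, and the ratio of the microglia clusters was 2.47 (2.16 to 2.82).

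Cd36 (chr5:17781690-17888801, minus strand) is the receptor for oxidized lipids and long-chain fatty acids. In CAM_1 and CAM_2 it differed more between pia and dura than between stroke and control within pia or dura. In CAM_1 it was undetected in control brain, at 17.3, 66.6 and 31.3 CPM in the stroke brain libraries, at 85.5 and 93.3 CPM in pia and at 330 and 245 CPM in dura, the control named first. CAM_2 had a like order, with 120 and 90.2 CPM in pia and 322 and 230 CPM in dura. The macrophage clusters of control dura exceeded those of control pia 1.95-fold (1.70 to 2.22), whereas pia at 24 h stood at 0.956 of its control (0.834 to 1.10) and dura at 0.813 (0.712 to 0.927). SAMC still held more Cd36 than CAM_2 of the same library in 4 of 4 libraries, by 1.16 on the log2 scale (SD 0.53). Other clusters had another order. In Granulo_1 of pia it was lower at 24 h, at 22.4 CPM against 144 CPM, on 17 and 13 UMIs. In mDC1, the type 1 dendritic cells, it was at 110 and 23.4 CPM in pia and at 139 and 67.3 CPM in dura, the control named first. Macro_2 of control brain held 80.7 CPM on 5 UMIs (26.2 to 188), against 117 CPM in control pia.

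**Figure D4:**
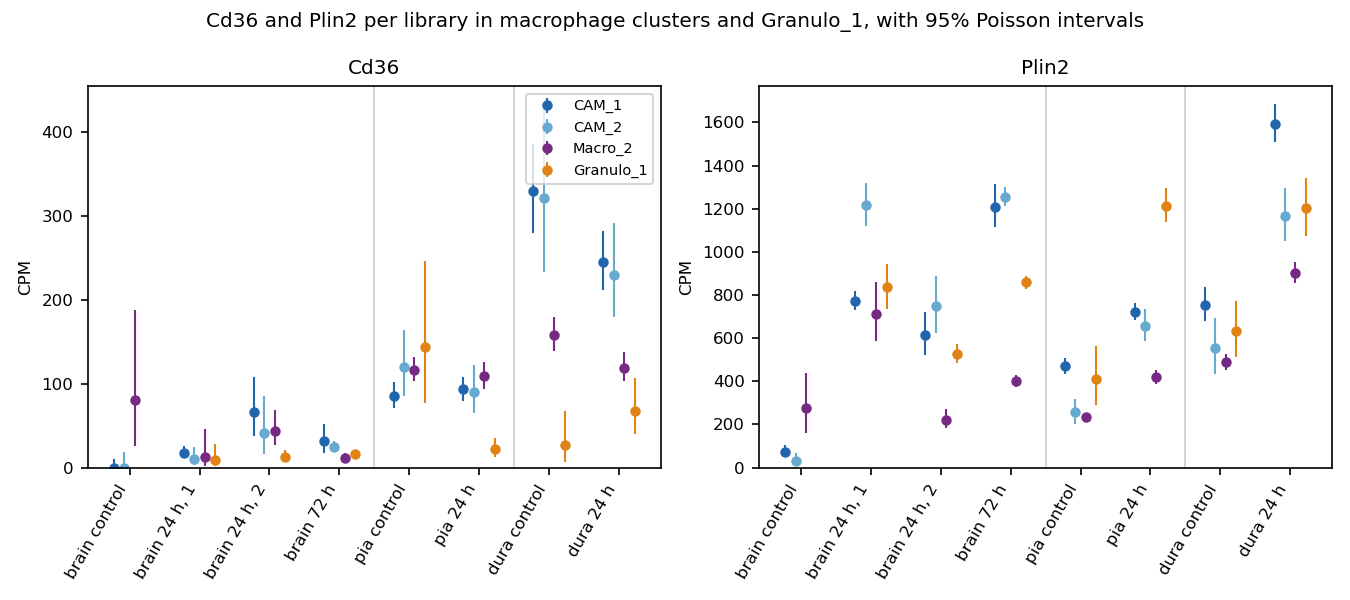
CPM of Cd36 (left) and Plin2 (right) in each library for CAM_1, CAM_2, Macro_2 and Granulo_1, points with 95% Poisson intervals. Cd36 is highest in dura, 330 and 245 CPM in CAM_1, with the control the higher, and Plin2 is higher after stroke than in the control of the same tissue, except in Macro_2 of brain 24 h replicate 2 (223 CPM against 275 CPM).

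Soat1 (chr1:156424525-156474331, minus strand), which makes cholesteryl esters, was at 162, 361 and 444 CPM in SAMC of the stroke brain libraries and at 110 CPM in pia. It exceeded CAM_1 in 4 of 4 libraries, by 0.71 (SD 0.16), but not CAM_2 beyond the spread (0.29, SD 0.32). Granulo_1 held 140, 281 and 361 CPM in the stroke brain libraries, below SAMC in each, but 142 CPM in pia at 24 h, above SAMC. Over these 4 libraries SAMC did not differ from Granulo_1 beyond the spread (0.13, SD 0.33). Outside these cells it was found in mast cells, at 169 CPM in control dura and 140 CPM in dura at 24 h.

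Lipa (chr19:34492318-34527474, minus strand), which frees cholesterol and fatty acids in the lysosome, was at 149, 160 and 486 CPM in SAMC of the brain and at 59.4 CPM in pia. In SAMC it was 3.03-fold higher at 72 h than in replicate 2 (2.20 to 4.29), and in the macrophage clusters 2.58-fold (2.11 to 3.17). Replicate 1 against control brain, which share list and kit, gave 1.71 in the macrophage clusters (1.28 to 2.32). These clusters carried microglial transcripts in control brain, as described above. Lipa in the macrophage clusters of pia at 24 h stood at 0.752 of its control (0.620 to 0.911). In the microglia clusters of the brain it ranged only from 72.5 to 80.9 CPM across the 4 libraries. Lipa in SAMC and CAM_2 did not differ beyond the spread (−0.01, SD 0.47).

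Abca1 (chr4:53030787-53159895, minus strand) and Abcg1 (chr17:31057675-31117988, plus strand) export cholesterol to lipoproteins. Abca1 in Micro_1 was at 48.6 CPM in control brain, 43.1 CPM in brain 24 h replicate 1, 413 CPM in replicate 2 and 446 CPM at 72 h. Abcg1 in the same cluster was at 22.3, 32.1, 140 and 153 CPM. In SAMC Abca1 was at 48.7, 903 and 374 CPM and Abcg1 at 32.5, 189 and 206 CPM in the stroke brain libraries, and in pia they were at 63.9 and 13.7 CPM. In lymphocytes of these brain libraries Abcg1 was at 10.1, 64.8 and 63.5 CPM. The value of replicate 1 rested on 1 UMI, too few to set it apart. The high values of both exporters in the brain lay in the 2 libraries with the shorter gene list. In Micro_1 and SAMC the 2 replicates at 24 h did not overlap.

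The replicates also differed by the span of genes. In the microglia clusters the ratio of replicate 2 to replicate 1 had a median log2 of −0.58 for genes under 3 kb, −0.72 for 3 to 10 kb, −0.32 for 10 to 30 kb, 0.59 for 30 to 100 kb and 1.42 for the 598 genes over 100 kb. Macrophage and lymphoid clusters showed the same order in the longer classes, with 1.25 and 1.00 over 100 kb. Between brain 72 h and replicate 2, which share the list, the medians went only from 0.46 under 3 kb to −0.41 over 100 kb. Abca1 spans 129 kb and Abcg1 60.3 kb, and their log2 ratios between the replicates were 3.56 and 2.37, above the upper quartiles of their classes (2.39 and 1.57). Soat1, spanning 49.8 kb, was 2.82-fold higher in replicate 2 (2.34 to 3.40), below its class's upper quartile. Lipa at 0.06, Plin2 at 0.24 and Lpl at 0.48 differed little. With 1 library per gene list at 24 h, the list and other differences between the replicates cannot be told apart. Replicate 1 and control brain share list and kit, and their Abca1 ratio was 0.866 (0.714 to 1.05) in the microglia clusters and 1.45 (0.909 to 2.41) in the macrophage clusters. For Abcg1 it was 1.36 in the microglia clusters (1.07 to 1.73), beyond counting error, and 0.994 in the macrophage clusters (0.610 to 1.68). These ratios were smaller than those between the replicates.

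**Figure D5:**
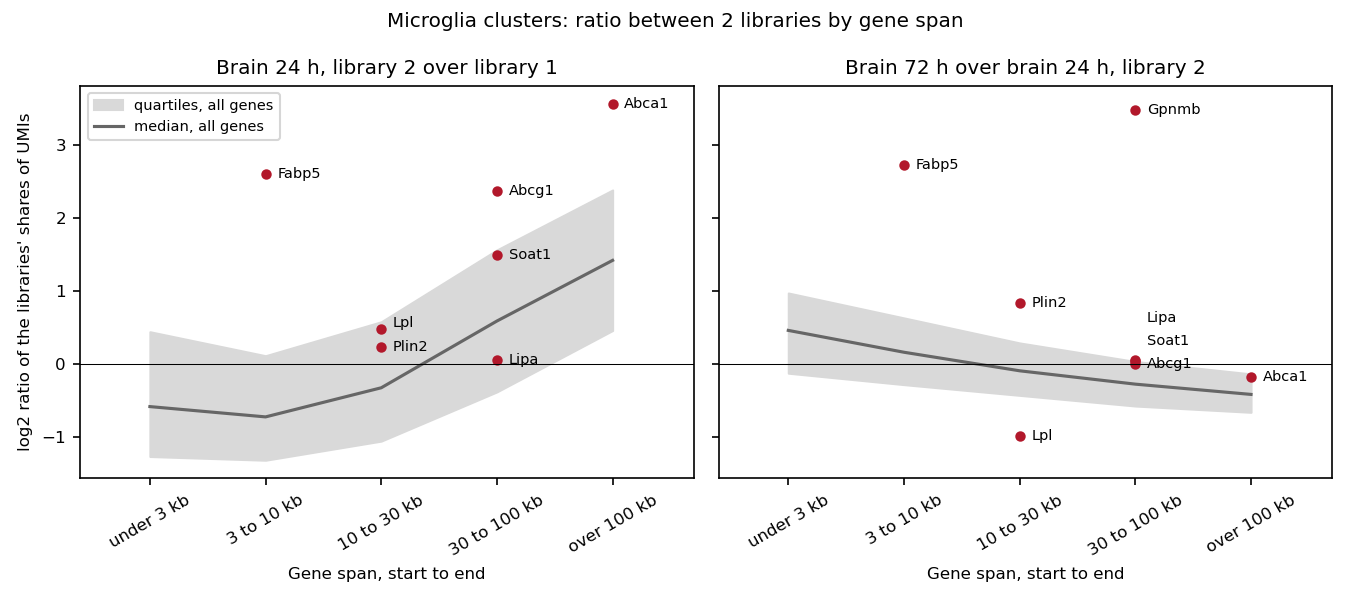
Log2 ratio between 2 libraries in the microglia clusters (vertical axis) by gene span from start to end (horizontal axis), for brain 24 h replicate 2 over 1 (left) and brain 72 h over replicate 2 (right). The line and band are the median and quartiles of all genes and the points the members with at least 20 UMIs in the pair; on the left Abca1 lies at 3.56 and Abcg1 at 2.37, on the right Abca1 lies at −0.17 and Abcg1 at 0.00.

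Differences across libraries were tested with edgeR's quasi-likelihood test on the sums per library, with tissue and time as terms, in 9 comparisons (24 h against control, 72 h against 24 h, pia against brain and dura against pia in the macrophage clusters, and the times in the microglia clusters, Granulo_1 and SAMC). Genes with at least a 2-fold difference and an adjusted p (Benjamini-Hochberg) under 0.05 were called. All 10 members were tested in the macrophage clusters and SAMC, and 9 in the microglia clusters and Granulo_1, where Fabp4 was too low. No member was called in any comparison. The share of all genes called was 0.643% for pia against brain (70 of 10887) and 0% in the other 8 comparisons, so that these designs called almost nothing. DESeq2 called 4 to 94 genes in those 8 comparisons and 479 for pia against brain. P-values measure the spread between libraries, and most groups held 1 library.

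At an unadjusted p under 0.05 edgeR gave between 0 and 5 members per comparison. The macrophage clusters had 5 of 10 at 72 h against 24 h, against 790 of 10887 genes. These were Gpnmb (log2 difference 5.64, SE 1.22, adjusted p = 0.67), Fabp5 (5.02, SE 1.55), Abcg1 (1.63, SE 0.69), Lipa (1.52, SE 0.46) and Lpl (−4.06, SE 1.23), each with the same adjusted p. In SAMC the 3 members were Lpl (−5.22, SE 1.68, adjusted p = 0.245), Fabp5 (4.13, SE 1.31, adjusted p = 0.234) and Gpnmb (4.07, SE 1.23, adjusted p = 0.21), out of 277 such genes among 7641. For pia against brain there were 4, against 1535 of 10887 genes, with Cd36 higher (2.78, SE 0.64, adjusted p = 0.123) and Lpl, Abcg1 and Gpnmb lower. The other comparisons gave Plin2 in the macrophage clusters at 24 h (1.63, SE 0.61, 468 genes in all) and Abcg1 in dura against pia (1.67, SE 0.68, 205 genes). Of 10213 genes in the microglia clusters, 223 passed at 24 h, Lpl among them (3.15, SE 0.74), and 215 at 72 h, with Fabp5 and Gpnmb. In Granulo_1 at 72 h 92 genes passed, with Gpnmb, Abca1 and Fabp5. Granulo_1 at 24 h gave none, against 168 of 5883 genes. The median over the 10 members in the macrophage clusters was 0.82 at 24 h against control (0.06 over all genes), 1.47 at 72 h against 24 h (0.00), −0.80 for pia against brain (−0.14) and 0.91 for dura against pia (−0.01). With the gene list as a term, described next, these medians were 0.43, 1.05, 0.25 and 0.89, so that the one for pia against brain changed sign. The brain side of that comparison includes the macrophage clusters of control brain, which carried microglial transcripts, as described above.

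With the gene list as a further term, more genes were called by edgeR. Brain 24 h replicate 2 alone sets this term, because brain 72 h is the only library of its time. A difference of 72 h against 24 h is then brain 72 h against replicate 2, with 1 library on each side. P-values of these fits take their spread from the libraries with the longer list and do not measure that between the 2 replicates. Those libraries are 1 per tissue and time, so the spread they give is how far the difference at 24 h varies among tissues. The fit also draws the spread of each gene toward the trend over all genes. The SE or p of a single gene is therefore not its own spread among tissues alone. The dural pair also differs in kit, and the microglia clusters of pia and dura also held macrophage markers, as described above. In dura these clusters held few Lpl UMIs, with 2 and 1 in Micro_2 and Micro_3 of the control. At 24 h there were 5, 3 and 2 in Micro_1, Micro_2 and Micro_3. Lpl was then higher in the microglia clusters at 24 h (3.79, SE 0.29, adjusted p = 1.1e-35), where 2% of all genes were called. At 72 h against 24 h in the same clusters, where 4.66% were called, Fabp5 (2.87, SE 0.40, adjusted p = 1.34e-09) and Gpnmb (3.68, SE 1.01, adjusted p = 0.00916) were higher. Macrophage clusters of pia against brain had 18.8% of genes called, and among the members Cd36 was higher (3.38, SE 0.30, adjusted p = 3.08e-05) and Abcg1 lower (−1.97, SE 0.29, adjusted p = 0.000702). Fabp4 also passed the threshold (adjusted p = 0.00924), but it had no UMI in the macrophage clusters of control brain and brain 24 h replicate 1. Its levels were 7.80 CPM in replicate 2 and 18.8 CPM in brain 72 h, above the 1.21 and 5.48 CPM of the pia libraries, so that its fitted fold is not given. In this fit the brain side of pia against brain rests on control brain and replicate 1. Their macrophage clusters held the most Tmem119, and those of control brain carried microglial transcripts, as described above. The part of these transcripts in the calls of Cd36, Abcg1 and Fabp4 was not tested. For dura against pia, with 1.12% called, Abca1 (1.15, SE 0.21, adjusted p = 0.0232) and Abcg1 (1.71, SE 0.28, adjusted p = 0.0125) were higher. No member was called in the macrophage clusters at 24 h (2.33% of all genes) or 72 h (0.799%), or in Granulo_1 at 24 h (1.73%) or 72 h (0.187%). No group in these fits has a second library that adds to the spread, and SAMC could not be fitted with this term.

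Other genes of the pathway were taken from lists of receptors, fatty acid activation, droplet coats, ester hydrolysis, oxidation, lysosomal sterol export, efflux with its nuclear receptors, TFE factors and Lpl regulation. Without the gene list term none of the 60 tested in the macrophage clusters, the 54 in the microglia clusters, the 41 in Granulo_1 or the 49 in SAMC was called by edgeR in any comparison. With the term, 1 of 60 was called in the macrophage clusters at 24 h, where 2.33% of all genes were, so that the lists did not stand above the background. It was Angptl4, an inhibitor of Lpl (2.77, adjusted p = 0.0237). At 72 h against 24 h, with 0.799% of all genes called, it was Slc27a1, a fatty acid transporter (2.30, adjusted p = 0.036), with 72.3 CPM at 72 h and 14.2 and 17.8 CPM in the replicates at 24 h. Dura against pia gave Angptl4 (3.84, adjusted p = 0.0071) and Slc27a1 (1.91, adjusted p = 0.0066) higher. Both genes were highest in brain 72 h (18.8 and 72.3 CPM) and dura at 24 h (18.4 and 42.2 CPM), the libraries of kit version 3. Control dura held 2.75 and 23.9 CPM, and control pia 0 and 7.25 CPM. Angptl4 had at most 12 UMIs in each library of kit version 2. The part of the kit in these calls was not tested.

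Pia against brain gave 9 higher and 4 lower of 60 with the same fit, near the 18.8% of all genes called, and nothing particular to these lists is read from it. Among them Acsl3, which activates fatty acids, was higher (3.39, adjusted p = 0.00203), on 1 and 3 UMIs in control brain and brain 24 h replicate 1. It was at 5.57 CPM in replicate 2 against 10.6 CPM in control pia. The nuclear receptor gene Pparg was called (adjusted p = 0.0045), with 0 and 3 UMIs in control brain and replicate 1. Its 7.80 CPM in replicate 2 exceeded the 6.76 CPM of control pia, so that its fitted fold is not given. The carrier gene Fabp7 was called too (adjusted p = 0.0318), with 0 and 1 UMI in control brain and brain 24 h replicate 1, and with 2.24 CPM in pia at 24 h against 3.34 CPM in brain 24 h replicate 2. Mgll, a monoglyceride lipase (−4.69, adjusted p = 0.000724), Lpcat3, which remodels phospholipids (−2.37, adjusted p = 0.000108), and Tfeb (−1.17, adjusted p = 0.00721) were lower. Lpcat3 was at 145 CPM in control brain, 147 and 49.0 CPM at 24 h and 52.5 CPM at 72 h, against 17.4 to 34.1 CPM in pia and dura. Mgll was at 48.4, 13.8, 2.23 and 2.83 CPM in the same order, against 0.242 to 1.38 CPM. Both were highest in control brain and replicate 1, whose macrophage clusters held the most Tmem119, as given above. Tfeb was at 49.9, 34.0, 32.3 and 33.5 CPM, against 11.7 to 15.7 CPM. The part of microglial transcripts in these calls was not tested. In the microglia clusters the scavenger receptor gene Msr1 was higher at 24 h (3.35, adjusted p = 3.57e-19) and lower at 72 h against 24 h (−2.21, adjusted p = 2.12e-05), with 2.62 CPM in control brain, 54.0 and 84.0 CPM at 24 h and 16.5 CPM at 72 h. Lpl summed over these clusters was also highest at 24 h, although in Micro_1 alone it was highest at 72 h (139 CPM). At 24 h Msr1 was the 1 gene called of 54 on the lists, where 2% of all genes were called. Nothing particular to these lists is read from either time.

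Genes whose levels went most like each member over 112 sums of library and cluster were named from 5836 genes by Pearson r. For Lpl they were the protease genes Ctsl (0.73) and Mmp12 (0.72), and for Fabp5 it was Gpnmb (0.74), Fabp4 (0.78) being under the minimum mean of 20 CPM for these candidates. Plin2 was closest to Fth1, a ferritin chain (0.80), and Msr1 was at 0.76. Cd36 was closest to Pf4, a marker of border macrophages (0.79), Lipa to Tmem86a (0.77), Soat1 to Fnip2 (0.75), Abca1 to the clathrin chain gene Cltc (0.82) and Abcg1 to Rreb1 (0.79). Lpl had an r of only 0.15 with Fabp5 and 0.25 with Gpnmb. All sums share libraries and depth, and no test was made.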

How the data were processed

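The deposited counts of UMIs per gene and barcode of 8 libraries were made by the authors with Cell Ranger 6.0 on mm10, without normalization, and were used as whole-number counts. Clusters and their names came from the authors' deposited annotation, made with filters on genes and mitochondrial reads, removal of doublets, SCTransform, Harmony and Louvain clustering. Doublets were not called again. 

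Genes were matched by Ensembl ID (30406 shared, 30329 of them with a span in GENCODE M21 on GRCm38). UMIs were summed per library and cluster. Sums of at least 30 cells were compared with edgeR 4.0.16 in R 4.3.3 (filterByExpr, TMM, glmQLFit with robust = TRUE, glmQLFTest, two-sided), with tissue and time as terms and all libraries. DESeq2 1.42.0, library-size scaling, no filter, kit version, gene list, no tissue term, SAMC added to the macrophage clusters, at least 10 cells, thinned cells, pooled libraries, and leaving out each library were the alternatives. Steps were tested on simulated data. Ratios of 2 libraries carry conditional exact intervals, shares Clopper-Pearson intervals, and a count of 0 was taken as up to 3 counts. Log ratios by span add 0.5 counts and use genes at 20 CPM or more. Likeness used log2(CPM + 10) for genes with a mean of at least 20 CPM. Python 3.11.15, numpy 2.4.6, scipy 1.17.1 and pandas 2.3.3 were used with seed 20220217.

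The members, gene lists and tests were chosen with earlier results of these data known. Named list genes were those called in a comparison, up to 3 in each direction by size. The 8 libraries share at most 0.995% of the barcodes of the smaller in a pair. Some marker and list genes are not reported here.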

Additional observations from a re-analysis of the deposited data

Results flagged for a closer look

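Barcodes to which the annotation gave no cluster also held UMIs of the 10 genes, in some stroke libraries above the control library of the same tissue. Lpl was at 391, 149 and 32.1 CPM in brain 24 h replicates 1 and 2 and brain 72 h, against 11.9 CPM in control brain, and at 38.7 CPM in pia at 24 h against 9.18 CPM. Fabp5 was at 151 CPM in replicate 2 and 1516 CPM at 72 h against 1.08 CPM, and Gpnmb at 26.6 and 459 CPM against 0. These barcodes thus followed the order of the clustered cells, Lpl at 24 h and Fabp5 with Gpnmb at 72 h.

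Plin2 in such barcodes was at 584, 158 and 634 CPM in the stroke brain libraries against 47.6 CPM, at 549 CPM in pia against 232 CPM and at 446 CPM in dura against 304 CPM. Soat1 was at 71.4, 91.3 and 230 CPM in the stroke brain libraries against 36.8 CPM. Cd36 was at 33.6 CPM in replicate 2 and 20.3 CPM at 72 h against 2.17 CPM, and Abca1 at 126 and 189 CPM against 34.7 CPM. At 72 h Lipa was at 204 CPM against 86.6 CPM, Abcg1 at 125 CPM against 31.4 CPM and Fabp4 at 11.7 CPM against 0, and Fabp4 was at 11.9 CPM in pia at 24 h against 0. Other values were lower than the control, with Cd36 at 69.3 CPM in pia (98.4 CPM) and 50.3 CPM in dura (75.9 CPM), Abca1 at 41.0 CPM in pia (55.1 CPM) and 25.4 CPM in dura (42.9 CPM), Lipa at 80.4 and 59.8 CPM in the brain 24 h replicates (86.6 CPM) and 38.7 CPM in pia (60.3 CPM), and Lpl at 25.4 CPM in dura (28.6 CPM).

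In the macrophage clusters Fabp5 at 24 h was 0.607 of its control in dura, whereas it was higher than the control in both brain libraries. Lipa at 24 h was 0.752 of its control in pia and was higher than the control in both brain libraries. Neither difference between tissues was tested.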

How the results depend on the processing

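No member was called in the 9 comparisons, and the alternatives that called any gave these counts. DESeq2 called 1 in the macrophage clusters at 72 h (94 of all genes), 3 for pia against brain (479), 1 in the microglia clusters at 24 h (8) and 1 in SAMC (35). Without a filter the counts were 4 (300), 4 (719) and 1 (16) for the first 3, and 1 (11) in the microglia clusters at 72 h. With the gene list as a term they were 3 (2050) for pia against brain, 2 (122) for dura against pia, 1 (204) in the microglia clusters at 24 h and 2 (476) at 72 h. Leaving out each library gave 0 to 0 members in the macrophage clusters at 24 h and in SAMC, 0 to 7 in the macrophage clusters at 72 h, 0 to 3 for pia against brain, 0 to 2 for dura against pia, 0 to 1 and 0 to 6 in the microglia clusters at 24 h and 72 h, and 0 to 1 and 0 to 3 in Granulo_1. The high ends came without brain 24 h replicate 2, and for the microglia clusters and Granulo_1 at 24 h also without replicate 1. Without replicate 2, on 1 brain library per time, 4188 of all genes were called in the macrophage clusters at 72 h, 3443 in the microglia clusters, 619 in Granulo_1, 2028 for pia against brain and 109 for dura against pia. At 24 h without replicate 2 or 1, 197 and 48 were called in the microglia clusters and 108 and 111 in Granulo_1. With kit version as a term Abca1 in Granulo_1 at 72 h went to −0.81 from 2.03, and the cause was not tested. SAMC had the highest mean of 6 members, of 8 with at least 10 cells, 7 with pooled libraries, 5 with thinned cells and 4 to 7 without a library. The 72 h comparisons without brain 72 h, and SAMC with kit or gene list as a term or without a brain 24 h library, could not be fitted. No paired analysis was possible because only brain 24 h has a second library.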
